A study of Mus musculus with 3 samples.

Results

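Cholesterol and fatty acid synthesis genes were read in embryoid bodies, clusters of mouse embryonic stem cells that begin to differentiate in suspension. The 32 listed genes encode enzymes of the mevalonate and sterol pathway and enzymes of fatty acid synthesis. They also include the SREBP transcription factors, their regulators and genes listed as further SREBP targets. A gene was included where a probe set carried its symbol alone in the platform annotation, and each gene was read from its brightest such probe set, judged by the mean of the 3 arrays. By this rule 31 of the 32 genes were measured, among 18193 genes on the arrays in all. Acat2 had no such probe set and was not analysed here.

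The bodies were grown from stem cells of strain 129S7/SvEv Brd-Hprt b-m2 and collected on day 7. The RQ bodies carried human BRCA1 with R1699Q by the series design, although that array's own label gives R1669Q. The MI bodies carried human BRCA1 with M1652I, and the WT bodies carried the wild-type human gene, so a human BRCA1 gene is common to all 3 groups. Feeder cells were removed on gelatin before the bodies were formed, and the labels do not say how many clones or cultures each array draws on. Each genotype has 1 array, so no difference below has a replicate check, no test across genes was possible and no p-value is given. "Higher" and "lower" describe these 3 arrays, whose small number limits precision.

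Cells make cholesterol from acetyl-CoA through mevalonate, isoprenoid diphosphates, squalene and lanosterol. When sterols are scarce in the endoplasmic reticulum, Scap carries the SREBP precursors to the Golgi, where they are cleaved and released to activate genes of this pathway and of fatty acid synthesis. When sterols are plentiful, the Insig proteins hold Scap back. Insig1 is itself an SREBP target, and the early endoderm of the embryo is known for heavy lipid uptake and export.

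SREBPs bind sterol regulatory elements, and they act on many promoters beside the factors NF-Y and Sp1. Promoter windows of RefSeq (assembly GRCm38.p6), which run from 250 bases before to 50 after each transcript start, were found for 26 of the 32 genes, 34 windows in all. The upstream 250 bases of 4 genes are shown because the results turn on them: Hmgcs1 and Msmo1 as enzymes that were lower on the MI array, Insig1 as the gene farthest below WT on both mutant arrays, and Elovl6 as the gene farthest above WT on the RQ array. They lie at chr13:119690101-119690350 (plus strand, Hmgcs1), chr5:28071162-28071411 (plus strand, Insig1), chr8:64733579-64733828 (minus strand, Msmo1) and chr3:129532136-129532385 (plus strand, Elovl6), and each is written 5′ to 3′ on the gene's strand. Capitals mark every match, on either strand, to 4 motifs: the sterol regulatory element core TCACNCCAC, the E-box CACGTG, the NF-Y box CCAAT and the Sp1 box GGGCGG.
Hmgcs1: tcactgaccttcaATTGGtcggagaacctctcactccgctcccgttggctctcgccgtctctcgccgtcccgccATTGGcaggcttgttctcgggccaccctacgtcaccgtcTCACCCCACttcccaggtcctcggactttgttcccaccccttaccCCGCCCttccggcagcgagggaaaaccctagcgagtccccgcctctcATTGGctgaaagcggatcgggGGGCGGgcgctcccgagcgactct
Insig1: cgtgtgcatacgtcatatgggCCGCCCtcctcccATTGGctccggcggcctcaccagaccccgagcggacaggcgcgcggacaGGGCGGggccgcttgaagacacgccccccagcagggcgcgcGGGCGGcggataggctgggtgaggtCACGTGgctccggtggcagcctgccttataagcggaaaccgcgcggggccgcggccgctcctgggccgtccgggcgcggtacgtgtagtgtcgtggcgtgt
Msmo1: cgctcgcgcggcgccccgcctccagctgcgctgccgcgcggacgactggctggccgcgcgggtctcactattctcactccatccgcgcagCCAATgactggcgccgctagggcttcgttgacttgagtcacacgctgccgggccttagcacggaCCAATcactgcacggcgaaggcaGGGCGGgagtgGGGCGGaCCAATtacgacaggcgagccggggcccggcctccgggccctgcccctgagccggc
Elovl6: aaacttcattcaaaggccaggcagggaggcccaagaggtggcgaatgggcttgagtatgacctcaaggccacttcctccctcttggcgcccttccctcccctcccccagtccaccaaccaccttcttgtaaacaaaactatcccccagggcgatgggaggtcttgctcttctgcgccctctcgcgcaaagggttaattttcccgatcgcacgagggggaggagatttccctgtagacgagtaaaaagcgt

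In the Hmgcs1 stretch the sterol regulatory element core begins 137 bases before the start, between NF-Y boxes that begin 176 and 45 bases before it. The Insig1 stretch has an E-box 101 bases before the start and holds Sp1 and NF-Y boxes, and the Msmo1 stretch has 3 NF-Y boxes and 2 Sp1 boxes. None of the 4 motifs matched in the Elovl6 stretch, which says only that these letters are not in that window. Over the whole 300-base windows, the NF-Y box was found in 22 of the 34 windows of the listed genes (64.7%), against 37.4% of all 32851 windows. The Sp1 box was found in 25 (73.5%, against 35.7%), the E-box in 6 (17.6%, against 7.15%) and the sterol regulatory element core in 1 (2.94%, against 1.24%). The listed genes' windows also had a higher median GC content (61.8%, against 52.7% of all windows), windows of 1 gene can overlap, and no match overlapped a match of another motif. These matches are descriptions of sequence and not binding sites.

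Signals are log2 values of 1 probe set per gene, and levels of different genes are not compared, since probes differ in brightness. A gene was counted where its mean over the 3 arrays reached 6.31, the median of all values. This level filter kept 30 of the 31 measured genes and 12023 genes in all. Pmvk, phosphomevalonate kinase, was the gene below it, with 5.98 in RQ, 5.89 in MI and 6.00 in WT. Genes were called lower or higher past 1.5-fold, a log2 difference of 0.58. On the MI array, signals above a level of 8 were generally low: the median MI minus WT difference was -0.36 for genes at levels of 9 to 10 and 0.10 at 6 to 7. Main differences that involve MI are therefore given as deposited and also after a lowess correction for signal level, called level-corrected. Levels, probe set differences and marker sums are as deposited.

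WT was the highest of the 3 arrays for 18 of the 30 genes (60.0%), against 26.3% of all genes above the filter. MI was the lowest for 15 of 30, against 30.3% of all genes, and the highest for 5, against 42.8%. These ranks are as deposited, and the part of the MI trend with signal level in them was not tested. In RQ, 6 of the 30 genes were at least 1.5-fold lower than in WT (20.0%), against 4.28% of all genes, and 1 was at least 1.5-fold higher, against 6.86%. Past 2-fold, Insig1 was the only listed gene lower in RQ (1.49% of all genes) and Elovl6 the only one higher (1.7% of all genes). In MI, 8 of 30 were at least 1.5-fold lower (26.7%), against 8.43% of all genes, and after level correction 7 (23.3%), against 6.03%. No listed gene was 1.5-fold higher in MI, against 1.95% of all genes (2.84% after level correction). The median difference of the 30 genes was -0.15 in RQ and -0.22 in MI (-0.24 level-corrected), against 0.01 and 0.05 (0.01 level-corrected) over all genes above the filter. Both mutants are set against the same WT array, so their differences are not independent. In whole bodies, fewer cells of a type and less RNA per cell cannot be told apart.

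**Figure D1:**
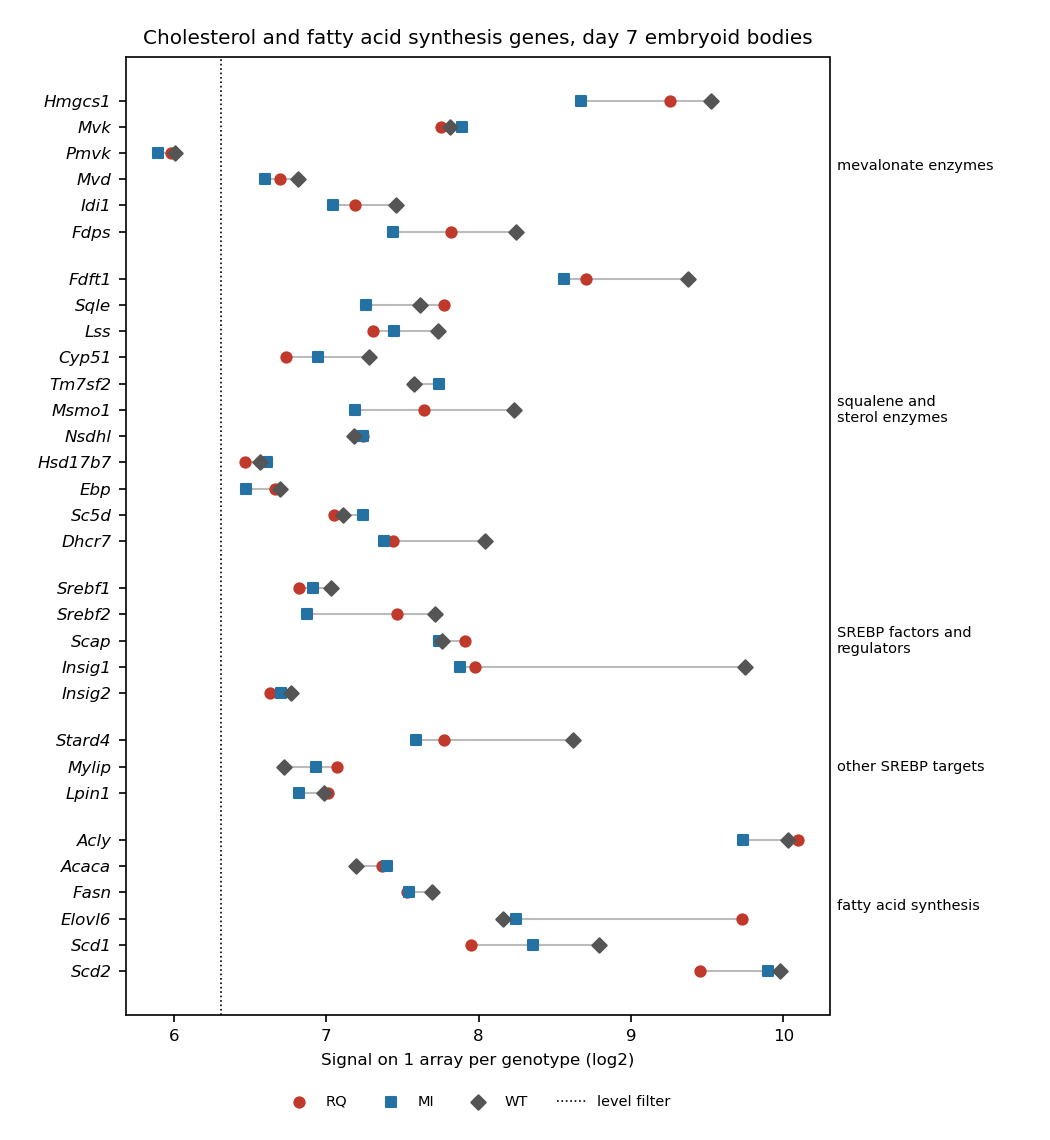
Log2 signal of the 31 measured genes on the RQ, MI and WT arrays (1 array each), grouped by role, with the level filter of 6.31 as a dotted line. Insig1, Stard4, Fdft1 and Dhcr7 have both mutant arrays well below WT, while Elovl6 has RQ alone far to the right, at 9.73.

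Other cell types' markers also differed between the arrays. Of 18 endoderm and yolk sac markers, 17 were measured and 12 passed the filter. Of those, 6 (Cubn, Lama1, Dab2, Col4a1, Lrp2 and Apoe) were at least 2-fold lower in each mutant than in WT, against 1.49% of all genes for RQ and 2.58% for MI. Cubn, Lama1 and Lrp2 lay below the filter level in both mutants and passed it only through WT. The filter thus favoured their place in this count. The summed linear signal of this list was 1865.0 in RQ, 1945.8 in MI and 9260.4 in WT. In all, 9 of the 17 markers lay below the filter level in RQ, 8 in MI and 4 in WT. Of the endoderm transcription factors on the list, Gata4, Sox7 and Foxa2 were below it on each array, while Gata6, Sox17 and Hnf4a were above it on each array and differed from WT by less than 1.5-fold in both mutants. Afp, Ttr and Apob also passed the filter and differed from WT by -0.14, -0.14 and 0.07 in RQ. Their MI differences were 0.24, 0.08 and 0.27 (0.19, -0.01 and 0.19 level-corrected). Of the 12 markers, 2 lay above 0 in RQ, against 6231 of 12023 genes. In MI 6 did (3 level-corrected), against 6984 (6192 level-corrected). Of 8 mesenchyme and fibroblast markers above the filter, 4 were at least 2-fold higher in MI than in WT, against 0.524% of all genes, and none reached 1.5-fold in RQ. Of these 4, S100a4 passed the filter only through MI (9.33, against 5.93 in RQ and 6.02 in WT). Of 13 pluripotency markers, 8 were at least 2-fold higher in RQ, against 1.7% of all genes. In MI 3 were, against 0.524%, and after level correction 4, against 81 of 12023 genes. In MI 5 of the 13 lay below 0 (4 level-corrected), against 5039 of 12023 genes (5831 level-corrected). Of the 13, 1, Pou5f1, was at least 2-fold lower in MI, against 2.58% of all genes. The MI difference of Pou5f1 was -1.17 (-0.77 level-corrected). The pluripotency median was 1.24 in RQ and 0.19 in MI (0.46 level-corrected). The 12 mesenchyme and fibroblast markers summed to 1015.1 in RQ, 4189.1 in MI and 1092.7 in WT, and the 13 pluripotency markers to 34693.7 in RQ, 22461.5 in MI and 22691.9 in WT. The part of these cell types in the differences below was not tested.

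The mevalonate enzymes, which build isoprenoid diphosphates from acetyl-CoA, were below WT in all 5 genes above the filter in RQ (median -0.27) and in 4 of 5 in MI (median -0.41, level-corrected -0.46). Of all 12023 genes above the filter, 5791 lay below WT in RQ and 5039 in MI (5831 level-corrected). Hmgcs1, the cytosolic synthase that makes HMG-CoA, read 9.25 in RQ, 8.67 in MI and 9.53 in WT. It was 1.21-fold lower in RQ than in WT and 1.81-fold lower in MI (1.51-fold level-corrected). Its 5 probe sets ranged over -0.61 to 0.02 for RQ and -1.11 to -0.43 for MI, so each of them was lower in MI than in WT. With the arrays quantile-normalized again the MI difference was -0.49, short of the limit.

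Fdps, which joins isoprene units into farnesyl diphosphate, had 7.82 in RQ, 7.44 in MI and 8.24 in WT. The RQ value was 1.34-fold below WT and the MI value 1.75-fold below (1.67-fold level-corrected). Its other probe set went the other way, with differences of 0.09 in RQ and 0.29 in MI, and the mean of both probe sets was -0.26 in MI. The Fdps difference thus rests on 1 probe set. Idi1, the isomerase that supplies dimethylallyl diphosphate, was 7.19, 7.05 and 7.46 in RQ, MI and WT, and both of its probe sets lay below WT in each mutant. Mvd, the decarboxylase that makes isopentenyl diphosphate, read 6.69, 6.60 and 6.81 in the same order, and mevalonate kinase Mvk read 7.75, 7.89 and 7.81. Neither reached 1.5-fold in any comparison, and no mevalonate enzyme was 1.5-fold lower in RQ than in WT.

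The squalene and sterol enzymes were divided, with some past the 1.5-fold limit below WT and the others closer to it. In RQ, 3 of 11 passed that limit, against 4.28% of all genes. In MI, 3 passed it as deposited, against 8.43%, and 2 after level correction, against 6.03%. The median was -0.09 in RQ and -0.29 in MI (-0.31 level-corrected). Fdft1, squalene synthase and the first enzyme committed to sterols, read 8.71 in RQ, 8.56 in MI and 9.37 in WT, which is 1.59-fold and 1.76-fold below WT. After level correction its MI difference was 1.47-fold, just short of the limit. Of its 4 probe sets above the filter, the 2 brightest were lower in both mutants (-0.67 and -1.18 in RQ, -0.81 and -1.57 in MI), while the 2 dimmest differed by -0.00 and 0.01 in RQ and by 0.15 and 0.14 in MI. The mean over its probe sets was -0.46 in RQ and -0.52 in MI.

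Msmo1, the sterol C-4 methyl oxidase, had 7.64 in RQ, 7.19 in MI and 8.23 in WT. It was 1.51-fold lower in RQ, at the edge of the limit, and 2.06-fold lower in MI (2.02-fold level-corrected). Its probe set can match several transcripts by its name, and the other, below the filter, differed by -0.22 in RQ and -0.33 in MI. Centring the arrays on their medians left the RQ difference at -0.584, just short of the limit. Dhcr7, the reductase of the last step to cholesterol, was read by a single probe set at 7.44 in RQ, 7.38 in MI and 8.04 in WT. Both mutants were thus below WT by a similar amount, 1.52-fold in RQ and 1.58-fold in MI (1.54-fold level-corrected). Quantile normalization placed the MI difference of Dhcr7 at -0.577, just short of the limit.

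Cyp51, the lanosterol demethylase, read 6.73 in RQ, 6.94 in MI and 7.28 in WT, and Lss, which cyclizes oxidosqualene to lanosterol, read 7.30, 7.44 and 7.73. In both, RQ was the lowest array and WT the highest, short of 1.5-fold. The other Cyp51 probe set above the filter did not have this order, with differences of 0.03 in RQ and -0.06 in MI. Sqle, the squalene epoxidase, went another way, with 7.78 in RQ, 7.26 in MI and 7.62 in WT, so that its MI array was the lowest and its RQ array the highest. Tm7sf2, Nsdhl, Hsd17b7, Ebp and Sc5d, further enzymes that modify sterols, stayed close to WT. Their RQ differences were -0.09 to 0.06 and their MI differences -0.22 to 0.17. Over the 16 mevalonate and sterol enzymes above the filter, 3 were past 1.5-fold lower in RQ, against 4.28% of all genes. In MI, 5 were (4 level-corrected), against 8.43% (6.03% level-corrected), and none was past 1.5-fold higher in either mutant.

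**Figure D2:**
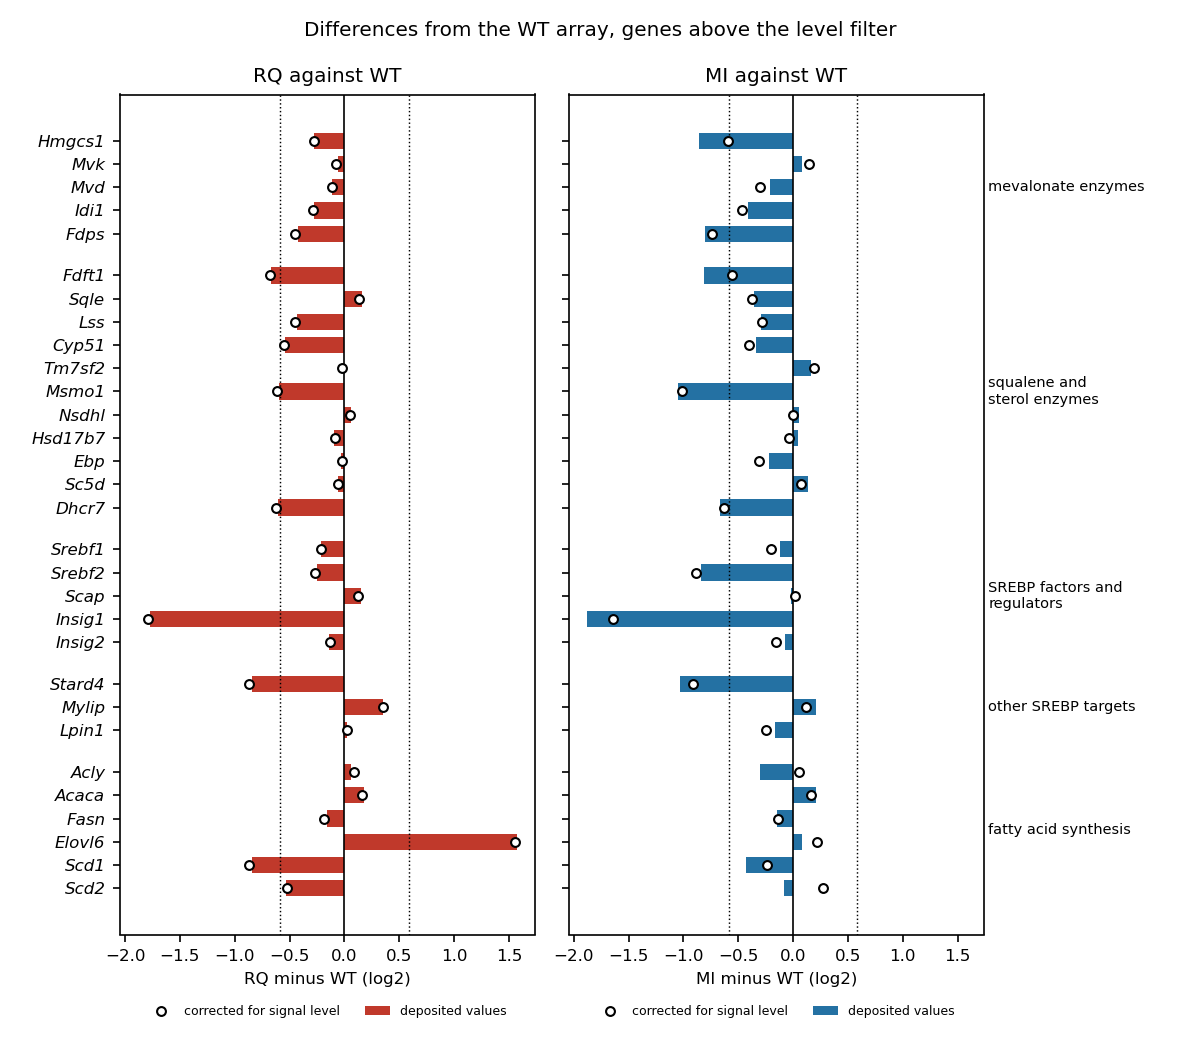
Log2 difference of each of the 30 genes above the filter from the WT array, for RQ (left panel) and MI (right panel). Bars are deposited values, open circles are values after correction for signal level, and dotted lines mark 1.5-fold. Insig1 has the longest bar below 0 in both panels (-1.77 in RQ and -1.87 in MI), and Elovl6 the longest above 0 in RQ (1.57).

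Among the SREBP factors and regulators, Insig1 stood apart. Insig1, which retains Scap in the endoplasmic reticulum and is induced by SREBPs, read 7.98 in RQ, 7.88 in MI and 9.75 in WT. Both mutant arrays were close together and far below WT, 3.42-fold lower in RQ and 3.67-fold lower in MI (3.12-fold level-corrected). Of the 12023 genes above the filter, 52 had a lower difference than Insig1 in RQ and 47 in MI. The gene has 1 probe set, so no second reading is available.

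Insig2, its relative, which is not known as an SREBP target, read 6.63 in RQ, 6.70 in MI and 6.77 in WT. Its probe sets above the filter differed in sign in both mutants (-0.14 and 0.22 in RQ, -0.07 and 0.14 in MI). Srebf2, the SREBP that mainly drives cholesterol genes, read 7.46, 6.88 and 7.71 in RQ, MI and WT. It was 1.78-fold lower in MI (1.84-fold level-corrected), and its other probe set differed by -0.62 in RQ and -1.28 in MI. The 2 readings of Srebf2 thus had the same sign in each mutant. Srebf1, which mainly drives fatty acid genes, read 6.82, 6.91 and 7.03 in the same order, and Scap read 7.91, 7.74 and 7.76. Neither reached 1.5-fold in any comparison.

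Of the genes listed as other SREBP targets, Stard4 was lower in both mutants. Stard4, a carrier that moves cholesterol between membranes, read 7.78 in RQ, 7.59 in MI and 8.62 in WT, which is 1.79-fold and 2.04-fold below WT (1.89-fold in MI, level-corrected). Its 3 probe sets all lay below WT, with differences of -0.96 to -0.20 for RQ and -1.03 to -0.24 for MI. Mylip is in this group by the listing only, as a ubiquitin ligase that lowers lipoprotein receptors and is induced by sterol-sensing LXR. It was 7.07 in RQ, 6.93 in MI and 6.72 in WT, above WT in both mutants and short of 1.5-fold. Lpin1, a phosphatidate phosphatase, read 7.01, 6.82 and 6.99 in RQ, MI and WT.

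**Figure D3:**
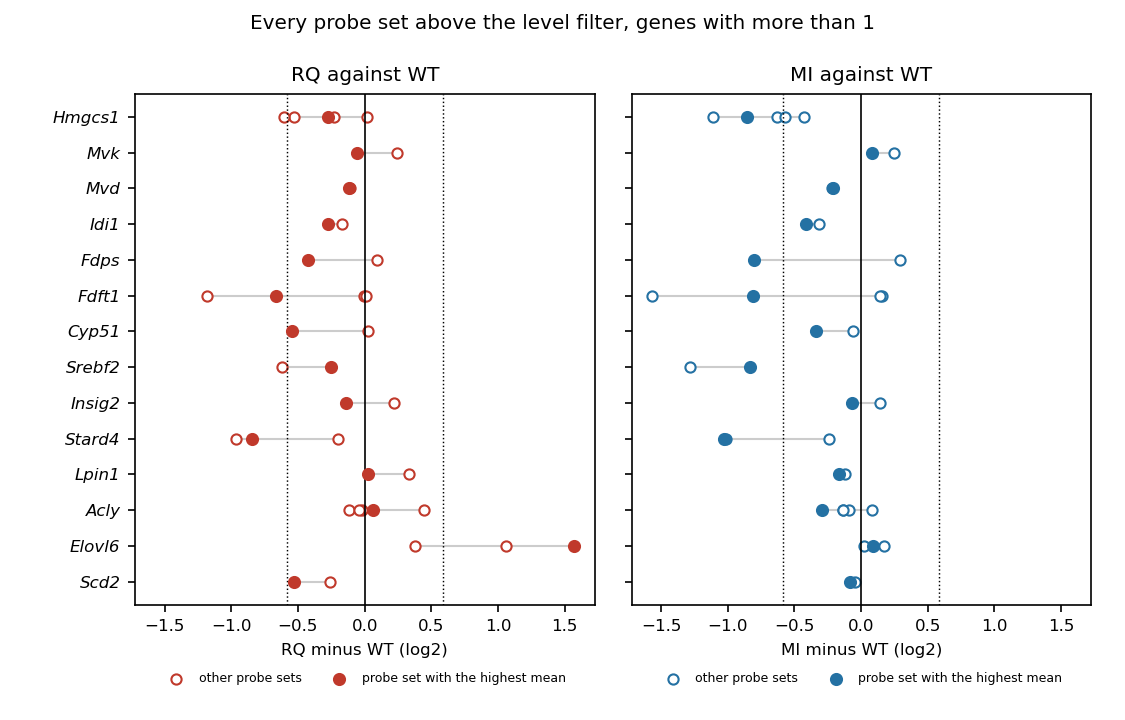
Log2 difference from WT for every probe set above the filter, in the 14 genes with more than 1, for RQ (left) and MI (right). Filled points are the probe sets used and open points the others. All probe sets of a gene lay on the same side of 0 for 7 of the 14 genes in RQ and 10 of 14 in MI, and Fdft1 and Fdps have the widest spread in MI.

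Fatty acid synthesis genes did not share a direction. Their median was -0.05 in RQ and -0.12 in MI, and the MI median turned to 0.11 after level correction and to 0.16 after quantile normalization. Elovl6, which lengthens palmitate to stearate, read 9.73 in RQ, 8.24 in MI and 8.16 in WT. The RQ array was alone in its high value, 2.97-fold above WT, while MI lay 1.06-fold above WT (1.16-fold level-corrected). The 3 Elovl6 probe sets were each above WT, with differences of 0.38 to 1.57 for RQ and 0.02 to 0.17 for MI. Only 35 of the 12023 genes had a higher RQ minus WT difference.

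The desaturases, which turn stearate into oleate, were lowest in RQ. Scd1 read 7.95 in RQ, 8.36 in MI and 8.79 in WT, and was 1.79-fold lower in RQ and 1.35-fold lower in MI (1.18-fold level-corrected). Its second probe set, below the filter, differed by -0.60 in RQ. Scd2, the form known from brain and embryo, read 9.45, 9.90 and 9.98 in RQ, MI and WT, 1.44-fold below WT in RQ. In RQ, then, the elongase that supplies stearate was above WT and both desaturases were below it, Scd2 by less than 1.5-fold.

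The enzymes that make palmitate itself were nearer to WT. Acly, which splits citrate into acetyl-CoA, read 10.09 in RQ, 9.73 in MI and 10.03 in WT, and its MI difference of -0.30 became 0.05 after level correction. Acaca, the acetyl-CoA carboxylase, read 7.37 in RQ, 7.399 in MI and 7.19 in WT, and Fasn, fatty acid synthase, read 7.53, 7.54 and 7.69. None of these 3 genes reached 1.5-fold in any comparison.

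RQ and MI bodies were also set against each other. Of the 30 genes, 3 exceeded MI by 1.5-fold or more in RQ (10.0%), against 10.0% of all genes, and none was 1.5-fold lower, against 1.53%. After level correction 2 were higher (6.67%), against 6.6% of all genes, and 2 were lower (6.67%), against 2.38%. The share of higher genes was thus near the background. The median of 0.10 became 0.030 after level correction and -0.030 after quantile normalization, so it has no settled direction. Elovl6 was the farthest apart, with an RQ minus MI difference of 1.48 (1.19 level-corrected), and all 3 of its probe sets were higher in RQ. It was the only listed gene past 2-fold higher (2.1% of all genes), and none was past 2-fold lower (0.499%).

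Srebf2 and Hmgcs1 lay at the limit, with RQ minus MI differences of 0.59 and 0.585. After level correction Srebf2 was at 0.63 and Hmgcs1 at 0.30, and after quantile normalization they were at 0.55 and 0.20. The Hmgcs1 probe set used can match several transcripts by its name, and without such probe sets the difference was 0.40. The 5 Hmgcs1 probe sets ranged from -0.18 to 0.59, with 1 below 0. Sqle (0.51, level-corrected 0.48) and Msmo1 (0.45 by both) were above 0 and short of 1.5-fold. In the other direction, Scd2 and Scd1 had differences of -0.45 and -0.41, which became -0.78 and -0.59 after level correction, past 1.5-fold. Insig1 and Dhcr7, which were low in both mutants, differed between them by 0.10 and 0.06.

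**Figure D4:**
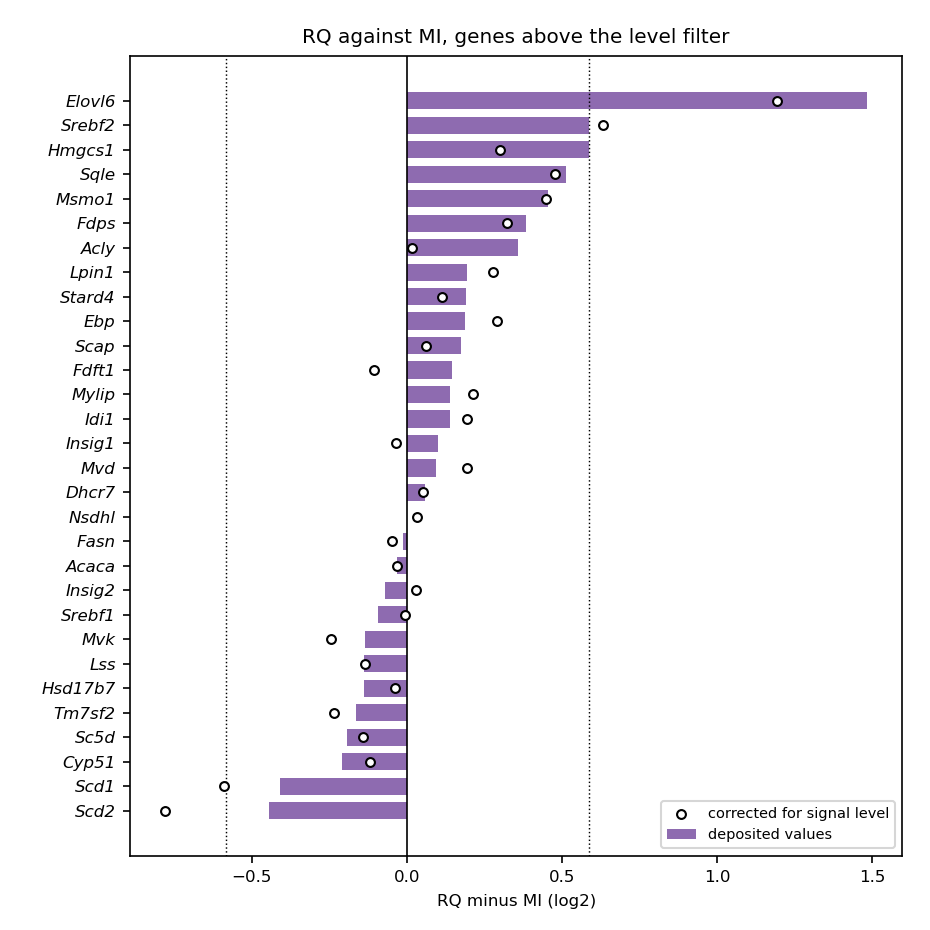
Log2 difference of RQ minus MI for the 30 genes above the filter, sorted by the deposited values (bars), with level-corrected values as open circles and 1.5-fold as dotted lines. Elovl6 is at the top with 1.48 and Scd2 at the bottom with -0.45.

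A further 79 genes of lipid synthesis, SREBP control and sterol handling were listed around the pathway, of which 69 were measured and 55 passed the filter. In RQ, 3 were at least 1.5-fold lower than in WT and 6 higher, against 4.28% and 6.86% of all genes. In MI, 9 were lower and none higher, against 8.43% and 1.95%, and after level correction 8 and 1, against 6.03% and 2.84%. The RQ counts are not far from these shares. Their median was 0.02 in RQ and -0.04 in MI.

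Among further fatty acid genes, 14 passed the filter, and 2 were 1.5-fold lower in RQ, against 4.28% of all genes. In MI, 5 were lower, against 8.43%, and after level correction 6, against 6.03%. Me1, the malic enzyme that supplies NADPH for lipid synthesis, read 8.10 in RQ, 7.94 in MI and 9.52 in WT. That is 2.68-fold below WT in RQ and 3.01-fold in MI (2.58-fold level-corrected), and its other probe set differed by -1.69 and -1.90. Slc25a1, which exports citrate from mitochondria to Acly, read 7.82, 7.31 and 8.50 in RQ, MI and WT, with log2 differences of -0.68 in RQ and -1.19 in MI (-1.12 level-corrected). Both suppliers of the pathway were thus low in each mutant, as Insig1 and Stard4 were. Of the very-long-chain elongation enzymes, Tecr, Hsd17b12 and Hacd2 differed by -0.22, -0.41 and -0.45 in RQ, and were at least 1.5-fold lower in MI, with differences of -1.003, -0.92 and -1.29 (-0.70, -0.69 and -1.02 level-corrected). The other probe set of Hacd2 differed by 0.11 in MI, and that of Tecr by -1.39. Hacd3, a relative of Hacd2, was higher in RQ (0.61) and differed by 0.53 in MI (0.55 level-corrected). Fads1, a desaturase of polyunsaturated fatty acids, read 7.24 in RQ, 6.98 in MI and 7.52 in WT, and passed the limit in MI only after level correction (-0.547 as deposited, -0.599 corrected).

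Of 8 genes that process or degrade the SREBP machinery, 7 lay above 0 in RQ, against 6231 of 12023 genes in all. Faf2 passed the filter only through RQ (6.50, against 6.25 in MI and 6.21 in WT). Spring1, with an RQ difference of -0.08, lay below the filter, so the filter favoured this count. In RQ 3 of the 8 were past 1.5-fold higher, against 6.86% of all genes, and the median was 0.39. In MI the median was 0.04 (-0.05 level-corrected). Mbtps1, the protease that makes the first cut in SREBPs in the Golgi, read 8.41 in RQ, 7.04 in MI and 7.26 in WT, 2.21-fold above WT in RQ. RQ alone was high, but the other probe sets of Mbtps1, both below the filter, differed by 0.09 and -0.43. Mbtps2, the protease of the second cut, read 7.66, 6.88 and 7.18 in the same order, 0.78 higher in RQ than in MI (0.81 level-corrected). Rnf145 and Rnf139, ubiquitin ligases of sterol-regulated degradation, were above WT by 0.71 and 0.68 in RQ and by 0.55 and 0.48 in MI on the log2 scale. After level correction the MI differences were 0.73 for Rnf145, past the limit, and 0.39 for Rnf139. The other Rnf139 probe set, below the filter, differed by -0.04 in RQ.

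Of genes for sterol uptake and transport, Npc2, a lysosomal cholesterol carrier, read 9.75 in RQ, 9.65 in MI and 10.63 in WT. It was 1.83-fold lower in RQ and 1.97-fold lower in MI (-0.61 on the log2 scale after level correction). Its 3 probe sets above the filter ranged from -1.17 to -0.00 in RQ and from -1.38 to 0.14 in MI. The dimmest of them was thus above WT in MI. Scarb1, a lipoprotein receptor, read 7.52, 6.97 and 7.92 in RQ, MI and WT, 1.93-fold below WT in MI (1.95-fold level-corrected), with each of its 3 probe sets lower. Lbr, which joins the nuclear lamina to a sterol reductase domain, read 10.51, 9.64 and 10.38, and its MI difference of -0.74 was -0.38 after level correction. The sterol-sensing LXR targets Abca1 and Abcg1, transporters that export sterols, had RQ differences of 0.25 and -0.19 and MI differences of 0.43 and -0.26 (0.38 and -0.03 level-corrected), short of 1.5-fold.

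**Figure D5:**
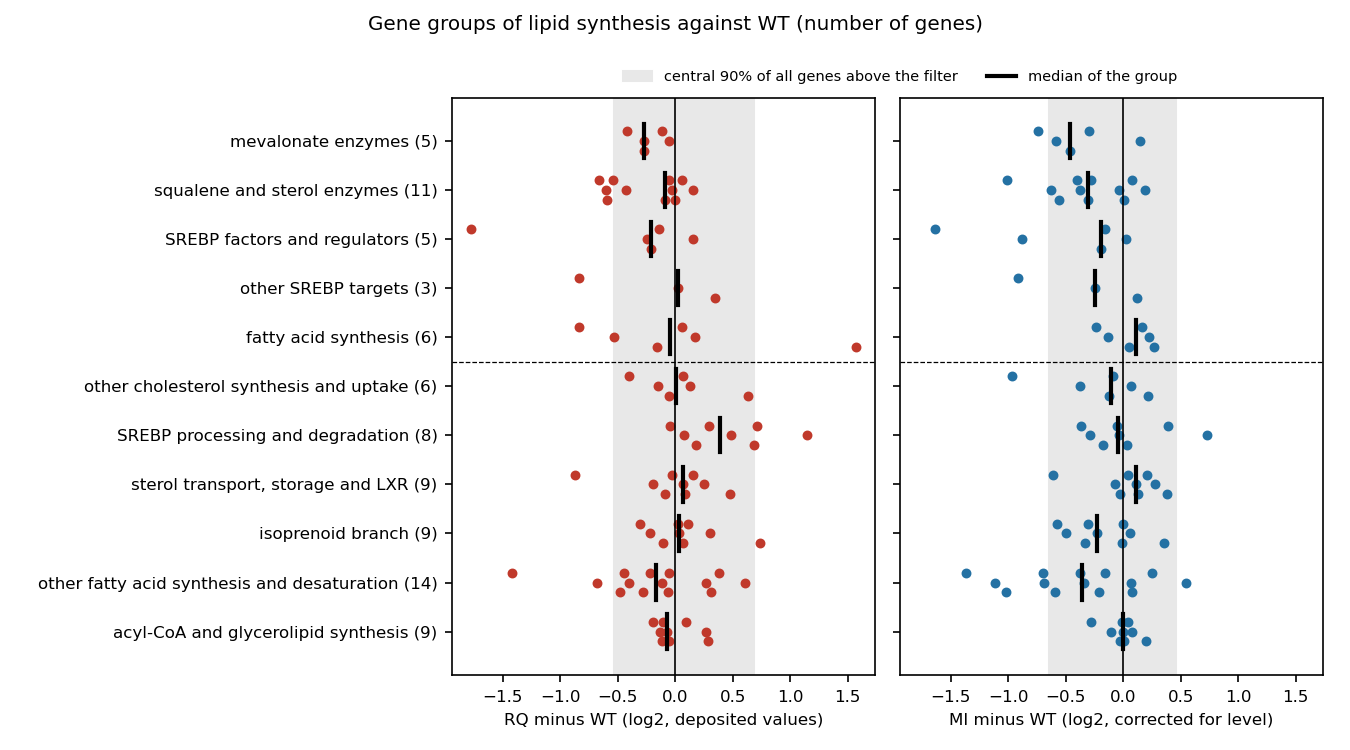
Log2 differences from WT by gene group, for RQ as deposited (left) and MI level-corrected (right), with 1 point per gene above the filter and the group's median as a bar. Groups above the dashed line are the listed genes and those below it are the further pathway genes, and the grey band spans the 5th to 95th percentile of all 12023 genes. Insig1, Stard4, Me1 and Slc25a1 lie left of the band in both panels, and SREBP processing and degradation has the highest RQ median (0.39).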

How the data were processed

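Total RNA (6 ug per sample) of day 7 embryoid bodies was hybridized to Affymetrix mouse arrays, 1 per genotype, per the labels. The deposited values are on the log2 scale and cover 45101 probe sets. Per the submitters' processing notes the tools were Partek and RMA, whose versions and order are not given in the sources used here. RMA as usually run subtracts background, makes arrays alike and summarises probes, which compresses differences of dim probe sets. The deposited arrays were not fully alike. MI had a median of 6.35 and a standard deviation of 1.06, against 6.28 and 1.17 in RQ and 6.29 and 1.17 in WT. The cause of this was not tested. No batch could be examined, and detection calls were not analysed here.

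Genes were named from the platform annotation (34945 probe sets with 1 symbol). Differences of log2 values were computed in Python 3.11.15 with pandas 2.3.3, and the lowess correction on the mean level of both arrays with statsmodels 0.14.6 (span 0.3, 3 robustness iterations). The correction was tried on simulated arrays whose MI trend with level was a straight line. The MI trend here was not, with medians of -0.36 at levels of 9 to 10 and -0.35 at 10 to 11. The simulation therefore cannot show how well the correction works on these arrays. Counts were made at 1.5-fold. The listed genes and gene lists were chosen with earlier results of these data known, so they are no independent support. All listed genes are named, and of the further pathway genes those past 1.5-fold above the filter in any comparison as deposited, and Fads1, which passed after level correction. Abca1, Abcg1, Dgat2 and the marker genes named were chosen after their values were seen. The 10 alternatives tried are given in the closing section.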

Additional observations from a re-analysis of the deposited data

How the results depend on the processing

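The medians of the listed genes against WT stayed below 0 under each of the 8 alternatives run for them, from -0.26 to -0.12 in RQ and from -0.32 to -0.15 in MI. The filter at the 75th percentile, which kept 24 genes, gave the lowest, -0.26 and -0.32. The median of RQ minus MI was -0.030 with the arrays quantile-normalized again, against 0.10 as deposited. That setting gave 5 genes lower in MI than in WT, against 8, and 2 lower and 1 higher in RQ than in MI, against 0 and 3. The shares of all genes under that setting are not given here, so its counts have no background beside them. With the lowess correction 2 were lower in RQ than in MI, against 2.38% of all genes. At a limit of 2-fold, 1 gene was lower in RQ than in WT, against 1.49% of all genes. At that limit 3 were lower in MI, against 2.58%, and after level correction 2, against 214 of 12023 genes. Past 2-fold, 1 was higher in RQ than in MI, against 2.1%. At a looser limit, a log2 difference of 0.32, 10 were lower and 2 higher in RQ than in WT, against 9.73% and 16.0% of all genes. There 12 were lower and 0 higher in MI than in WT, against 17.5% and 9.42%, and 2 lower and 7 higher in RQ than in MI, against 7.03% and 21.6%. The cause of these shifts was not tested, apart from the limits and filter, which change the count by construction. Of the genes past 1.5-fold, none changed direction in any of the recomputed values, and 31 of 35 of these for RQ, 33 of 40 for MI and 10 of 15 for RQ against MI stayed past it. The alternatives that moved only the filter or the limit are not in these counts, since they leave a gene's value as it was. No paired analysis was possible because each genotype has 1 array. Signals near the filter lie close to background, and differences there can be understated.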

Other observations

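Prenylation and isoprenoid genes, which use the products of the mevalonate pathway, had a median difference of 0.03 in RQ and -0.28 in MI (-0.23 level-corrected), with 3 of 9 below 0 in RQ and 7 of 9 in MI. Of all 12023 genes above the filter, 5791 lay below 0 in RQ and 5039 in MI (5831 level-corrected). Nus1 exceeded WT by 1.5-fold in RQ (6.86% of all genes) and Rabggtb was below it by that much in MI (8.43% of all genes). Nus1, a subunit of the enzyme that makes dolichol chains, read 8.99 in RQ, 8.19 in MI and 8.26 in WT, but its 3 other probe sets above the filter differed by -0.52 to -0.25 in RQ, in the opposite direction. Fntb, the beta subunit of farnesyltransferase, read 7.26, 6.47 and 6.96 in RQ, MI and WT, 0.79 higher in RQ than in MI (0.88 level-corrected). Rabggtb, a subunit of the transferase that prenylates Rab proteins, was just past the limit in MI (-0.59), and at -0.23 after level correction. Ggps1, which makes geranylgeranyl diphosphate and was listed with the cholesterol genes, read 6.84 in RQ, 6.503 in MI and 6.21 in WT, 1.55-fold above WT in RQ, and its 3 other probe sets lay below the filter.

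Of 9 genes above the filter that activate fatty acids or build glycerolipids, none reached 1.5-fold in any comparison, with a range of -0.20 to 0.28 in RQ and -0.23 to 0.28 in MI. With 9 genes, a count of 0 is near the shares of all genes past the limit, 4.28% lower and 6.86% higher in RQ, and 8.43% and 1.95% in MI. Dgat2, which makes triglycerides, read 7.32 in RQ, 7.16 in MI and 7.39 in WT. Markers of adipocytes and hepatocytes, cells known for lipid synthesis, gave no clear signal. Of 11 listed, 8 were measured, with levels of 5.33 to 6.64 over the 3 arrays, and 2 passed the filter. Their summed linear signal was 543.6 in RQ, 583.7 in MI and 552.3 in WT.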
